A study of Homo sapiens with 2 samples.

Results

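The very long genes are the autosomal genes in the PAX-8 peak annotation that have a protein-coding RefSeq transcript, listed under an NM_ accession, of at least 600 kb between its start and its end. The limit uses transcript length and no peak value, although a gene is in the annotation only when a peak was assigned to it, and 157 of the 10846 autosomal genes with an NM_ transcript in the annotation met the limit. The data came from foam cells made from THP-1, a human cell line derived from a monocytic leukemia. PMA (160 nmol/L, 24 h) had turned the cells into macrophages, ox-LDL (48 h) had then filled them with lipid, and C18-3OH was given last. The peaks come from 1 PAX-8 ChIP library, compared with 1 Input library of chromatin that was not immunoprecipitated, and both libraries share every treatment. The deposited result is 1 list of 45360 peaks on hg19, of which 45093 are autosomal. Because 1 list was analysed, no value below has a replicate, no condition could be compared with another, and every interval covers counting error only. The depth of both libraries is unknown, since no read number was at hand.

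PAX-8 is a paired-box transcription factor that is best known from thyroid and kidney development. Genes of this length owe their size to introns, since their exons add up to a small part of the span, and one transcript takes many hours to make. Many of them encode adhesion molecules, receptors and scaffolds of nerve cells, and several lie across common fragile sites, regions that break when replication is slowed. A gene with such a body offers a wide target to any peak caller, and the count of peaks in it has to be read per Mb.

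The members were 606 to 2314 kb long (median 853 kb), lay on 21 of the 22 autosomes, with 20 on chromosome 3 and none on chromosome 19, and 87 of them were on the plus strand. A peak was counted once by its position and was assigned to a gene body when its midpoint lay within the longest listed transcript. Just inside the limit stood ADGRV1 (605641 bp, 6 body peaks), KHDRBS2 (606268 bp, 9), MYO16 (612101 bp, 7), CDK14 (614271 bp, 10) and SORCS3 (623953 bp, 13). Just outside it stood SNX29 (597554 bp, 12 body peaks), AFF3 (597172 bp, 12), ELMO1 (596419 bp, 10), SORCS1 (591044 bp, 4) and SEMA6D (590133 bp, 9). Peak counts on either side of the limit overlapped.

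The bodies of the 157 very long genes held 2010 peaks in 149.754 Mb, or 13.4 peaks per Mb (exact Poisson 95% interval 12.8 to 14.0). Each body had at least 1 peak, with a median of 11 and a maximum of 45. The members took up 5.36% of the listed autosomal span and held 4.46% of the autosomal peaks. Thus they carried many peaks per gene and few per Mb.

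The class nearest in length consists of the genes of 300 to 600 kb, of which 441 were listed. Very long genes had 13.4 peaks per Mb, against 15.8 peaks per Mb (15.2 to 16.4) in the genes of 300 to 600 kb, which held 2891 peaks in 182.9 Mb. The ratio of these densities was 0.849 (95% interval 0.802 to 0.899). Taking each gene as 1 value, the median was 11.6 peaks per Mb (quartiles 8.54 and 17.9) in very long genes and 13.3 peaks per Mb (quartiles 9.06 and 20.8) in genes of 300 to 600 kb, so the distributions overlapped widely. Single genes scattered beyond counting error, with a variance 4.81 times that of a Poisson count in very long genes and 2.54 times in genes of 300 to 600 kb. Such a multiple grows with the number of peaks per gene, which was larger in very long genes. It therefore does not show which class was more scattered. The interval of the ratio treats peaks as independent and therefore understates the spread between genes. Restricted to peaks with a fold enrichment of at least 10, the ratio was 1.02 (0.772 to 1.35), an interval that holds both 1 and the ratio for all peaks.

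**Figure D1:**
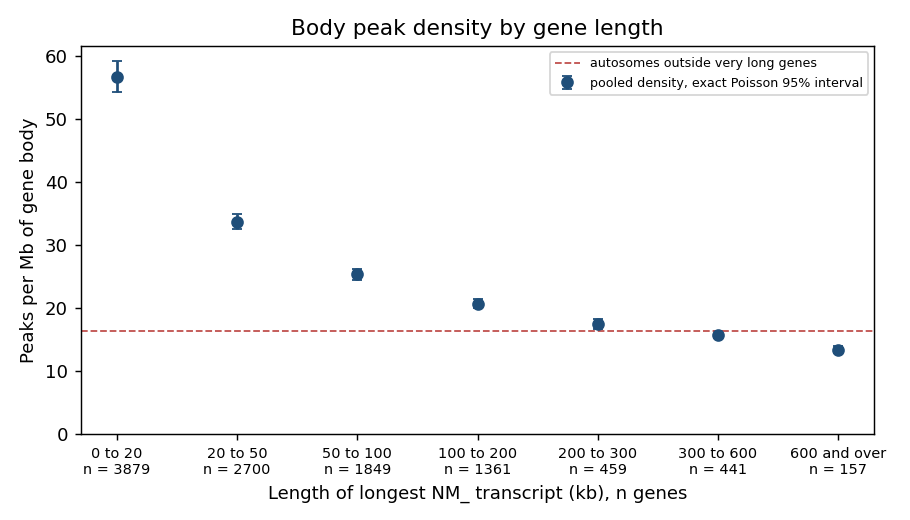
Pooled peaks per Mb of gene body for 7 length classes of autosomal genes, in kb, with exact Poisson 95% intervals and the number of genes under each class; the dashed line is the density of the autosomes outside the very long genes. The classes ran from 56.7 peaks per Mb in genes under 20 kb to 13.4 peaks per Mb in genes of 600 kb and over.

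Across shorter classes the density was higher still, with 17.5 peaks per Mb in genes of 200 to 300 kb, 20.7 in those of 100 to 200 kb and 56.7 in those under 20 kb. A short gene, however, is in the annotation only when a peak was assigned to it. Of the 3879 listed genes under 20 kb, 2283 had no peak in the body and were listed for a peak nearby, whereas 4 of the 441 genes of 300 to 600 kb had none. The densities of the shorter classes are therefore raised by the listing itself, by an amount that cannot be computed without the genes that had no peak.

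Compared with all other autosomal sequence between the first and the last listed peak of each chromosome, very long genes again had fewer peaks per Mb. They had 13.4 peaks per Mb, against 16.3 peaks per Mb over the remaining 2644 Mb, a ratio of 0.824 (0.787 to 0.862). Counted against the chromosome on which each gene lies, 2022 peaks were observed when those of SCHIP1, which lies within IQCJ-SCHIP1, were counted for both genes, and 2419 were expected, a ratio of 0.836 (0.800 to 0.873). By gene, 109 of 157 members (69.4%) were below the rest of their own chromosome, while the same count in genes of 300 to 600 kb gave 61%. By chromosome, the members were below the rest on 17 and above it on 4. The 12 members on chromosome 7 had 18.3 peaks per Mb, against 15.4 in the rest of that chromosome. The 2 members on chromosome 22 had 18.5 peaks per Mb, against 29.4 in its rest.

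The flanks, which were taken as 50% of the gene length on each side, gave a closer comparison. Very long gene bodies had 13.4 peaks per Mb, against 14.2 peaks per Mb (13.6 to 14.9) in their flanks, and the interval of the ratio, 0.944 (0.887 to 1.004), held 1. For genes of 300 to 600 kb the same ratio was 0.962 (0.913 to 1.01). With flanks freed of other listed genes, the ratio for very long genes was 1.05 (0.980 to 1.12), on the other side of 1. Genes are listed for an assigned peak, so this step removes sequence chosen for its peaks. It therefore raises the ratio by itself, by an unknown amount. Of the members, 84 (53.5%) were below their flanks, 67 above and 6 equal, and 47.8% of genes of 300 to 600 kb were below theirs. The flanks were themselves below the 16.3 peaks per Mb of the remaining autosomes. Across the 157 members, body and flank density had a Spearman correlation of 0.534, and across the 441 genes of 300 to 600 kb one of 0.435. These are descriptions over neighbouring stretches of the same library.

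**Figure D2:**
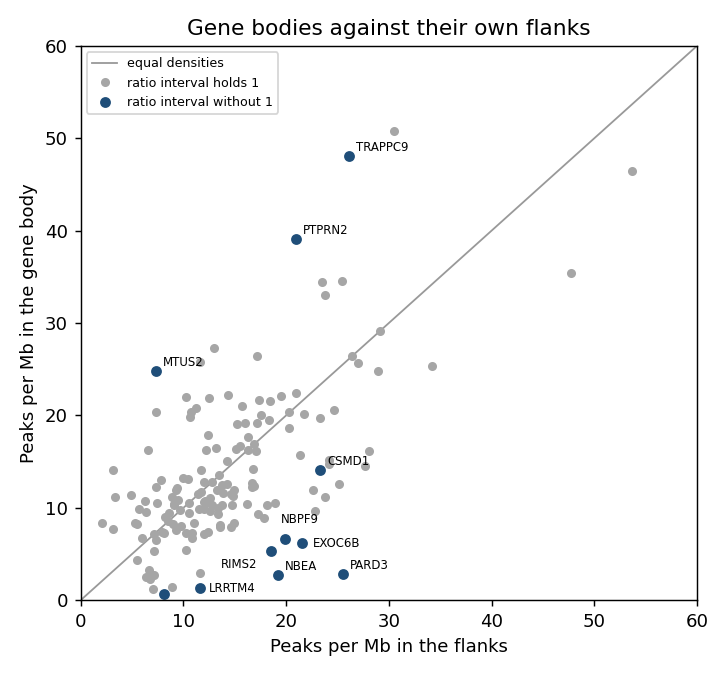
Each point is one of the 157 very long genes, with peaks per Mb in the gene body on the vertical axis and peaks per Mb in its flanks on the horizontal axis; dark points are genes whose 95% interval of the ratio lies apart from 1. Of these, 3 lie above the line of equal densities and 8 below it.

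For 8 members (5.10%) the interval of the body to flank ratio lay below 1, which was the case for 2.95% of genes of 300 to 600 kb. Among them were CSMD1, NBPF9, EXOC6B, RIMS2, PARD3, NBEA and LRRTM4. PARD3, a scaffold of the cell polarity complex, had 2 peaks in 706 kb (2.83 peaks per Mb), against 25.5 peaks per Mb in its flanks, a ratio of 0.111 (0.0125 to 0.464). NBEA, which encodes the membrane trafficking protein neurobeachin, had 2 peaks in 730 kb (2.74 peaks per Mb), against 19.2 in its flanks, a ratio of 0.143 (0.0158 to 0.622). EXOC6B, a subunit of the exocyst, and RIMS2, a protein of the presynaptic active zone, had 4 body peaks each and a ratio of 0.286 (0.0685 to 0.910). PARD3, NBEA, EXOC6B and RIMS2, which were picked by this ratio, thus had few body peaks beside flanks that carried more. CSMD1, with 29 body peaks (14.1 per Mb), was not itself sparse.

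For 3 members (1.91%) the interval lay above 1, against 1.36% of genes of 300 to 600 kb. MTUS2, which encodes a microtubule-associated protein, had 17 peaks (24.8 peaks per Mb), against 7.29 peaks per Mb in its flanks, a ratio of 3.40 (1.20 to 11.8). PTPRN2, a transmembrane protein of dense-core vesicles, had 39.1 peaks per Mb, against 21.0 in its flanks, a ratio of 1.86 (1.08 to 3.29). TRAPPC9, a subunit of a tethering complex in vesicle transport, had 48.1 peaks per Mb, against 26.1 in its flanks, a ratio of 1.84 (1.03 to 3.41). As a longer body holds more peaks and so gives a narrower interval, both shares also depend on gene length.

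Single members differed widely from each other. Densities reached 50.8 peaks per Mb in CDH4, and MACROD2 had 1.17. For 19 members (12.1%) the Poisson interval lay below the pooled density of very long genes, and for another 19 (12.1%) above it. In genes of 300 to 600 kb, set against the pooled density of that class, 4.08% lay below and 9.3% above. A longer body holds more peaks and gives a narrower interval, so these shares also depend on gene length.

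**Figure D3:**
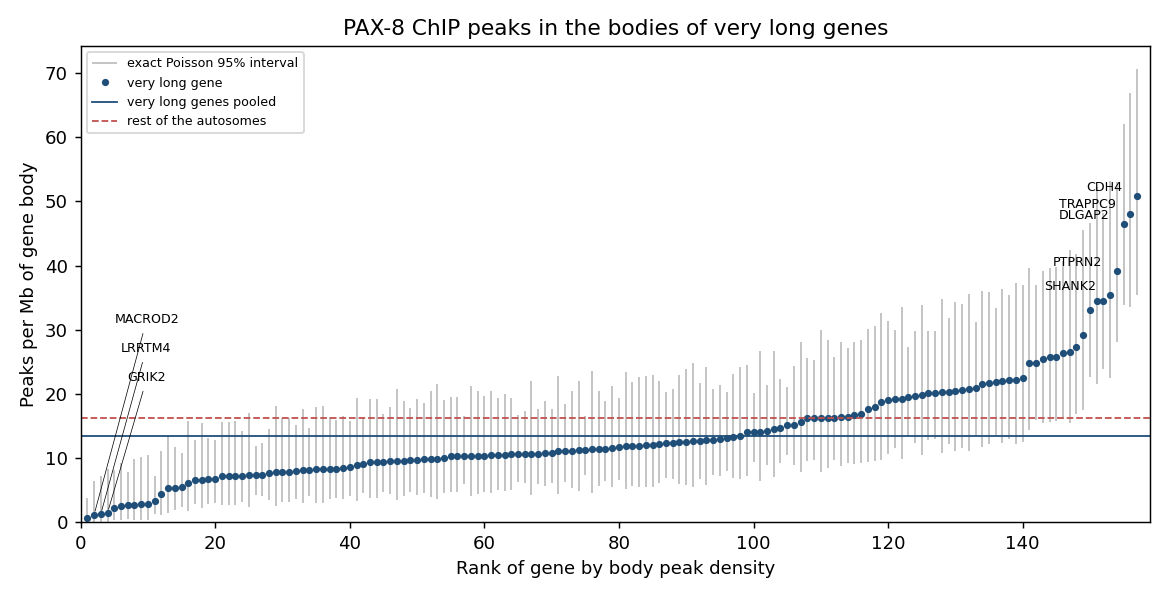
Peaks per Mb of gene body for each of the 157 very long genes in order of density, with exact Poisson 95% intervals; the solid line is the pooled density of very long genes and the dashed line that of the rest of the autosomes. The labelled genes at the low end include MACROD2 with 1.17 peaks per Mb, and the highest point is CDH4 with 50.8.

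The densest member was CDH4, which encodes R-cadherin, at chr20:59827316-60515673 (hg19). It held 35 peaks, or 50.8 peaks per Mb (35.4 to 70.7), and its longest stretch without a peak was 56.5 kb, the shortest such stretch among the members. The flanks of CDH4 had 30.5 peaks per Mb. TRAPPC9 followed with 35 peaks (48.1 per Mb), and DLGAP2, a scaffold protein of the postsynaptic density, had 45 peaks (46.4 per Mb), the most of any member. DLGAP2 lies at chr8:687627-1656642 near the chromosome end, where its flanks had 53.7 peaks per Mb, more than its body. PTPRN2 had 41 peaks (39.1 per Mb), SHANK2, another postsynaptic scaffold, 23 (35.4 per Mb), and CAMTA1, a calmodulin-binding transcription activator, 34 (34.5 per Mb). AGAP1, a GTPase-activating protein for Arf, had 22 peaks (34.5 per Mb), and SDK1, a synaptic adhesion molecule, 32 (33.1 per Mb). CSMD2, a membrane protein with CUB and sushi domains, had 19 peaks (29.2 per Mb), and KCNMA1, the pore subunit of the BK potassium channel, 21 (27.3 per Mb). The intervals of these 10 genes overlapped, and their order was not tested gene against gene.

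Several members were nearly empty at the other end. MACROD2, an enzyme that removes ADP-ribose from proteins, had 1 peak (1.17 per Mb), LRRTM4, a synaptic adhesion protein, 1 (1.29 per Mb), and GRIK2, a kainate receptor subunit, 1 (1.48 per Mb). The listed transcript of MACROD2 covered only 41.6% of the RefSeq gene, so its values leave out the larger part of the gene. MGAT4C, of a glycosyltransferase family, had 2 peaks (2.26 per Mb) and FSTL5, a follistatin-like protein, 2 (2.56 per Mb). ADGRL2, a latrophilin receptor, had 2 peaks (2.91 per Mb). With NBEA and PARD3 these are among the 10 sparsest members, and their intervals also overlapped one another.

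**Figure D4:**
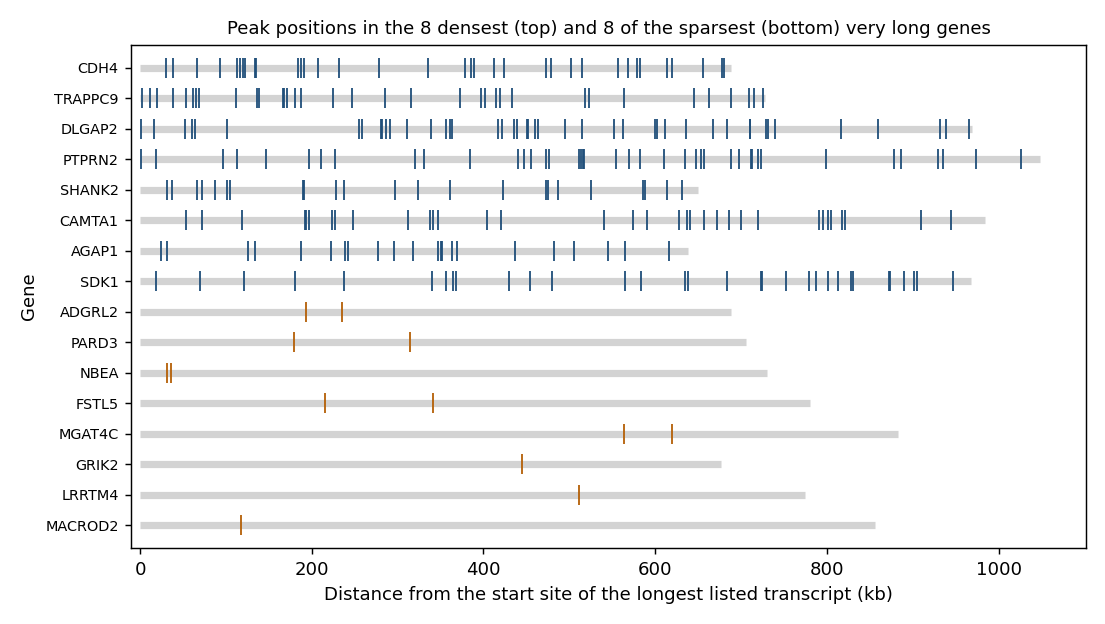
Positions of peaks, as distance in kb from the start site, in the 8 densest (top) and in 8 of the sparsest (bottom) very long genes; grey bars are the gene bodies and ticks are peak midpoints. In the sparse genes 1 or 2 ticks stand in bodies of up to 883 kb.

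Peaks were spread along the bodies, with long empty stretches in few genes. The longest stretch without a peak had a median of 212 kb over the members, and it was 794 kb in PCDH15, a cadherin of hair cells, and 738 kb in MACROD2. It took up more than 50% of the gene in 11 members and 95.1% of NBEA, whose 2 peaks stand close to its start. In windows of 100 kb, very long genes had a mean of 1.32 peaks over 1426 windows, against 1.57 over 1622 windows in genes of 300 to 600 kb. SCHIP1 and IQCJ-SCHIP1, which overlap, were each cut into windows. The variance over the mean was 1.35 in very long genes over all windows but 0.973 within a gene, close to the value of 1 that a Poisson count would give. Thus most of the excess scatter lay between genes and little of it along a gene. Of the windows in very long genes, 30.5% were empty, while 26.7% would be empty if peaks were spread evenly at the mean density, and the fullest window held 9 peaks.

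**Figure D5:**
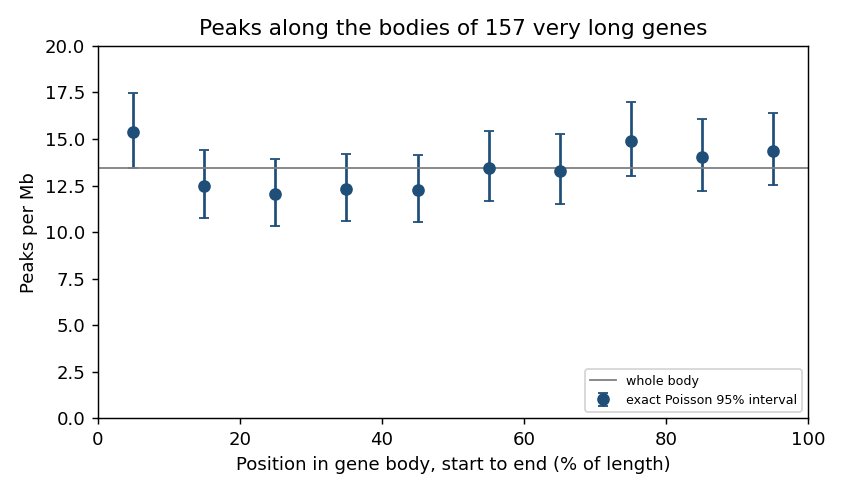
Peaks per Mb in 10 equal parts of the gene body, from start to end, pooled over the 157 very long genes, with exact Poisson 95% intervals; the line is the density of the whole body. The first part had 15.4 peaks per Mb, the highest of the 10, and the third part 12.0, the lowest.

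Along the gene from start to end, the 10 equal parts held 181 to 231 peaks each. The peaks of SCHIP1 were again counted for IQCJ-SCHIP1 too, which made 2022 peaks against 2010 unique ones. Intervals of the parts treat these repeated peaks as independent. The first 10% of the body had 15.4 peaks per Mb, against 13.2 in the remaining part, a ratio of 1.16 (1.01 to 1.33). The last 3 parts, from 70% to 100% of the body, had 14.9, 14.0 and 14.4 peaks per Mb. Their intervals overlapped that of the first part, so the first part does not stand alone. Near the start, the density was highest at the start itself. Within the first 2 kb, very long genes held 18 peaks, or 57.3 peaks per Mb (34.0 to 90.6), against 12.9 (11.9 to 14.0) between 300 and 600 kb from the start. From 2 to 10 kb the density was 18.3 peaks per Mb (11.6 to 27.5), and from 10 to 50 kb it was 14.5 (11.7 to 17.8). Genes of 300 to 600 kb had 43.1 peaks per Mb (30.5 to 59.1) in the first 2 kb, which overlaps the interval of the very long genes.

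The annotation gave each peak a class by its distance to the transcripts of the assigned gene, and the promoter class reached 2 kb to either side of a start. Of the 2296 peaks assigned to very long genes, 1866 were intronic, 311 intergenic, 67 upstream, 35 in a promoter and 17 exonic. Promoter peaks were assigned to 30 of the 157 members (19.1%, Wilson interval 13.7 to 26.0), against 17.7% of genes of 300 to 600 kb and 24.6% of all 10846 genes. The share was thus near that of the class next in length, and the listing raises the last of these shares as it raises density.

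Of the 35 promoter peaks, 26 were at the first start of the gene and 9 at a start further inside it, in SMYD3, PTPRD, SDK1, CALN1, ZBTB20, ASIC2 and SOX5. They had a fold enrichment of 4.49 to 9.80 (median 7.27) and 11 to 31 tags (median 16), and 25 lay downstream of the start. The highest fold, 9.80, was at ADGRL3, a latrophilin receptor, where the peak at chr4:62066986-62067359 (hg19) began 39 bp downstream of the start with 12 tags. An inner start of SOX5 had a peak of fold 9.22. Folds of 8.99 stood at ASIC2, an acid-sensing ion channel, at LINGO2, a neural membrane protein, at PTPRN2, at the cation channel TRPM3 and at the kinase-family gene ULK4. The netrin receptor DCC, the receptor phosphatase PTPRG, SDK1 and the guidance ligand SLIT3 had promoter peaks of fold 8.17. SMYD3, a lysine methyltransferase, had 3 promoter peaks, with folds of 7.79, 6.71 and 4.49. The strongest of the peaks at ROBO1, a receptor for Slit ligands, at RALYL, an RNA-binding protein, and at the transcription factor ZBTB20 had folds of 7.77, 7.55 and 7.38.

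At the first start of SOX5, NAV2, TRPM3 and NKAIN3, a peak covered the start and the sequence around it. The sequences of SOX5, NAV2 and TRPM3 are shown because these starts are the clearest case of a peak on a promoter among the very long genes. SOX5, a transcription factor of cartilage and nerve cells, had its peak at chr12:24714818-24716181 with 31 tags and a fold of 5.22. NAV2, a neuron navigator protein, had its peak at chr11:19366042-19367024 with 22 tags and a fold of 6.54. TRPM3 had its peak at chr9:74061706-74062500 with 16 tags and a fold of 8.99. These peak positions are on hg19. The 250 bases before the most upstream RefSeq start of each gene, taken by gene symbol, are printed 5′ to 3′ on the strand of the gene, with positions on GRCh38.p14 and every CpG in capitals.
NAV2, plus strand, chr11:19344986-19345235: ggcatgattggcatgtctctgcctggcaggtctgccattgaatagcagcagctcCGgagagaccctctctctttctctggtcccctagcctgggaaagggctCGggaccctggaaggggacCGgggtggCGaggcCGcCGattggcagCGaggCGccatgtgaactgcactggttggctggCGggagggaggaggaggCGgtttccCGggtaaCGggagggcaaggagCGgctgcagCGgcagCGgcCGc
SOX5, minus strand, chr12:24562492-24562741: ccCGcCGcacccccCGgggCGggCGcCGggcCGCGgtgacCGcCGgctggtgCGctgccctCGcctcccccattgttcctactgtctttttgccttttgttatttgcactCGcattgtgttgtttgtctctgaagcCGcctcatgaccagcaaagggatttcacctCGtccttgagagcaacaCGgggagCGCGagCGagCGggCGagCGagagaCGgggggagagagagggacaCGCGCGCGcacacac
TRPM3, minus strand, chr9:71446972-71447221: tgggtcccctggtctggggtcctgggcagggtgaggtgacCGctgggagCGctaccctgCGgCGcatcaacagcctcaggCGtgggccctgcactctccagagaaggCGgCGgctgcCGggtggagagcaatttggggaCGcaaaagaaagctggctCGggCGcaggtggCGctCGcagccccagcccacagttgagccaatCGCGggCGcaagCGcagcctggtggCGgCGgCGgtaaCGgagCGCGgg
The GC content was 66.8% in NAV2, 65.6% in SOX5 and 70.4% in TRPM3, with 16, 27 and 23 CpG in that order, against a median GC content of 58.4% over 33725 RefSeq promoter windows of the same 250 bases. The letters GTCANGC, a core of the PAX consensus, were searched on both strands and had 0 matches in the 3 windows. They were present in 9.02% of all those windows and in 27 of the 302 windows that belong to very long genes (8.94%).

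Peaks in very long genes had the same median fold enrichment as other peaks, and fewer of them had many tags. The median count was 13 tags per peak in very long genes and 14 in the other autosomal peaks, and the median fold enrichment was 7.35 in both. Peaks with at least 30 tags made up 1.69% (1.21 to 2.35) in very long genes, against 2.91% (2.75 to 3.07) elsewhere and 2.42% (1.92 to 3.05) in genes of 300 to 600 kb. Peaks with a fold of at least 10 made up 4.83% (3.97 to 5.85) in very long genes and 4.62% (4.43 to 4.83) elsewhere.

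The 10 body peaks with the highest fold enrichment were all intronic. The highest stood in SCHIP1, which encodes a binding partner of schwannomin, and in the readthrough gene IQCJ-SCHIP1 that contains it, at chr3:159307196-159307514, with 19 tags and a fold of 15.52. The FDR of this peak, 2.13%, was also the highest among body peaks of very long genes, whose median FDR was 0.16%. A peak of fold 13.89 lay in CDH4 at chr20:60014049-60014818 with 25 tags, and another of fold 13.89 in DAB1, an adaptor of reelin signalling, at chr1:58774983-58775828 with 21 tags. HPSE2, a heparanase homologue, had a peak of fold 13.2 and NCKAP5 one of fold 13.07. The remaining ones, in CALN1, DLGAP1, ADGRL3, TENM4 and SDK1, had a fold of 12.25, which the best peaks of DPP6 and GRM8 also had. All positions are on hg19.

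From the tags and the p-value of each peak, the background against which it was called could be solved as a Poisson mean. The base of the logarithm in the listed p-value is not stated, and base 10 was taken because 56.4% of peaks then shared 1 background within 1% to either side, against 12.5% with base e. The shares below therefore rest on that choice. The most common value over the whole list was 5.94 tags per kb, and a peak was called at background when it lay within 1% of it. This held for 56.9% (54.7 to 59.1) of peaks in very long genes, 54.3% (52.4 to 56.1) in genes of 300 to 600 kb and 55.5% (55.1 to 56.0) of other autosomal peaks. In 26 members with at least 5 peaks, fewer than 20% of peaks were at background. They include 10 of the 11 members on chromosome 8 and 4 of the 5 on chromosome 6. The remaining member on each of these chromosomes had under 5 body peaks, so every member there that could be classed was in this group. The 26 genes had 15.6 peaks per Mb, against 14.2 in the 95 members with more than 60% at background, a ratio of 1.10 (0.981 to 1.22). Without chromosomes 6 and 8 the density of very long genes was 13.2 peaks per Mb (12.6 to 13.9). The part of the higher background in the densities was not tested beyond these values.

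NBPF9 and NBPF19, of the neuroblastoma breakpoint family on chromosome 1, are uncertain. Their listed spans were 14.7 and 28.5 times the length of the gene in RefSeq, they belong to a family of near-identical copies, and reads from one copy may be placed on another. NBPF19 is the longest member by its listed span of 2314 kb and held 35 peaks, none of them at background, and NBPF9 held 5. The peak with the most tags in any member, 273, lay in NBPF9 and was called against 5.37 times the common background. Without both genes the density of very long genes was 13.4 peaks per Mb.

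The other of the longest members were near or below the pooled density. PTPRD, a receptor tyrosine phosphatase of synapses, had 26 peaks in 2299 kb (11.3 per Mb), and DLG2, a postsynaptic scaffold at chr11:83166215-85338388 (hg19), 16 in 2172 kb (7.37 per Mb). CSMD1 had 29 peaks in 2060 kb (14.1 per Mb), against 23.3 per Mb in its flanks. LRP1B, of the LDL receptor family, had 14 peaks in 1900 kb (7.37 per Mb), with 7.90 per Mb in its flanks. Across the 157 members, length had a Spearman correlation of -0.196 with density and of 0.316 with the number of peaks. Members of at least 800 kb had 12.3 peaks per Mb (11.6 to 13.0).

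Members near a chromosome end had more peaks per Mb than the others. The 25 members within 10 Mb of the first or last listed peak of a chromosome had 21.5 peaks per Mb, against 11.8 in the 132 others, a ratio of 1.82 (1.64 to 2.01). The interval of this ratio treats peaks as independent and understates the spread between genes. CDH4, TRAPPC9, DLGAP2, PTPRN2, CAMTA1, AGAP1 and SDK1 are among the 25. So are members below the pooled density of very long genes, such as TMEM132D (9.61 peaks per Mb), PTPRD (11.3) and DLGAP1 (11.5). Of the 10 densest members, SHANK2, CSMD2 and KCNMA1 lie further inside. The Spearman correlation of density with the distance to the chromosome end was -0.288 over the 157 members, and -0.175 over the 441 genes of 300 to 600 kb. Base composition, gene density and copy number along these chromosomes were not measured here.

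By function, 126 members fell into at least 1 of 12 groups and 31 into none. The group medians were close to the median of 11.6 peaks per Mb over all members, and lay between 9.55 and 15.2. The group of receptor tyrosine phosphatases and the ErbB system also counted ALK, a receptor tyrosine kinase with 20.6 peaks per Mb. The 9 genes of this group had the highest group median, 15.2 peaks per Mb, with 6 of them above the median of all members. The rank of this median was not computed without ALK. PTPRN2 led this group, PTPRT had 17 peaks (15.2 per Mb), and ERBB4, the neuregulin receptor, 11 (9.46 per Mb). The 6 cadherins and catenins had a median of 14.0 and ran from 3.32 in PCDH15 to 50.8 in CDH4, with 16.2 in CDH13 and 7.26 in CDH12. The 8 genes grouped under axon guidance had the lowest median, 9.55 peaks per Mb. Among them were DAB1 with 14.2, ROBO2, another receptor for Slit ligands, with 8.21, and DCC with 6.69. They also included FSTL5, with 2.56 peaks per Mb, whose place in this group is doubtful. The rank of this median was not computed without FSTL5.

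The 24 genes of synaptic and neural adhesion had a median of 11.2 peaks per Mb and ran from 1.29 in LRRTM4 to 33.1 in SDK1. In NRXN3 there were 18 peaks in 1698 kb (10.6 per Mb), and in CNTNAP2, a contactin-associated protein, 17 in 1647 kb (10.3 per Mb). The 9 glutamate and GABA receptor genes with their scaffolds had a median of 11.5, with 46.4 in DLGAP2 and 7.37 in DLG2. The 11 ion channel genes had a median of 12.3, with 20.1 peaks per Mb in DPP6 and 10.7 in DPP10, auxiliary subunits of potassium channels, and 12.3 in KCNIP4, a potassium channel-interacting protein.

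The 20 genes of common fragile sites had 283 peaks, or 11.8 peaks per Mb (10.4 to 13.2), and a median of 10.7. In FHIT, which spans the fragile site FRA3B at chr3:59733002-61237126 (hg19), there were 16 peaks in 1504 kb (10.6 per Mb), with 12.0 per Mb in its flanks. Of the longest genes in the group, DLG2 and LRP1B had 7.37 peaks per Mb each and CNTNAP2 10.3. MACROD2, with 1.17, and NBEA, with 2.74, are also in it, and SDK1 was its densest member with 33.1. FHIT is named outside the rule for named genes.

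The 14 transcription factors, chromatin and RNA-binding proteins had a median of 10.4 peaks per Mb, with 33 peaks in the splicing regulator RBFOX1 (19.5 per Mb), 24 in AUTS2, a component of a Polycomb complex (20.1 per Mb), and 10 in SOX5 (9.68 per Mb). The 6 kinases, phosphodiesterases and GTPase regulators had a median of 12.3, with 20 peaks in the cAMP phosphodiesterase PDE4D (13.1 per Mb), 15 in the cGMP-dependent kinase PRKG1 (11.5 per Mb) and 6 in the diacylglycerol kinase DGKB (7.23 per Mb). The 11 genes of matrix, proteoglycans and glycosylation had a median of 12.5, although both glypicans among them were lower, with 8 peaks in GPC5 (5.45 per Mb) and 9 in GPC6 (7.62 per Mb), and the glycosyltransferase GALNTL6 had 8 (6.51 per Mb). The 12 muscle and cytoskeleton scaffold genes had a median of 10.9, with 22 peaks in AGBL4, a carboxypeptidase of tubulin (14.8 per Mb), 16 in ANKS1B (12.8 per Mb) and 15 in the sarcoglycan SGCZ (13.0 per Mb). The 10 genes of trafficking and exocytosis had a median of 11.1, with 21 peaks in ERC2, of the active zone (21.9 per Mb), 10 in VPS13B (11.6 per Mb) and 8 in TMEM132D (9.61 per Mb). The range of densities within every group was wider than the range of the group medians.

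Among 20 families with more than 1 very long member there were 31 pairs of relatives. In 22 of them the interval of the density ratio held 1, and in 9 it lay above 1. The ratio was taken as denser over sparser and is above 1 by construction, unrelated pairs were not counted, and members scattered beyond Poisson counts in general, so nothing particular to families can be read from these numbers. The families were listed after the member names were known. In the DLG-associated proteins, DLGAP2 had 46.4 peaks per Mb, against 11.5 in DLGAP1, a ratio of 4.05 (2.06 to 8.68). CDH4 was above CDH12 by a ratio of 7.01 (3.19 to 17.5) and above CDH13 by 3.14 (1.75 to 5.81). CSMD2 was above CSMD3 by 3.22 (1.46 to 7.49) and above CSMD1 by 2.07 (1.10 to 3.82). Of the IgLON adhesion proteins, NTM was above NEGR1 by 3.15 (1.32 to 8.65) and OPCML above NEGR1 by 2.49 (1.03 to 6.91). Pairs whose interval held 1 included 8.54 peaks per Mb in ROBO1 against 8.21 in ROBO2, 10.4 in SOX6 against 9.68 in SOX5, and 10.3 in ANK2 against 9.90 in ANK3.

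Not every peak in a very long gene was assigned to it. Of the 2010 body peaks, 1934 were assigned to a member and 76 to other genes only, and 93 other listed symbols have their start inside a member. For 8 members the listed transcript covered less than 80% of the RefSeq gene, so part of the gene was not counted as body. Among them were TENM2, RBFOX1, CNTNAP2, GPHN, NAALADL2, ROBO2 and MACROD2. With only those peaks that were assigned to the gene, the density was 12.9 peaks per Mb (12.4 to 13.5) in very long genes.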

How the data were processed

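The authors deposited 1 peak annotation of the foam cells, with 103443 lines, 1 for each peak and transcript. Its deposited columns hold a count of tags per peak, a ratio named fold enrichment, a score equal to the negative logarithm of the p-value times 10, an FDR in percent, and positions and lengths in bp. FastQC and the build hg19 are named in the submitters' processing notes. The sources used here give neither the aligner, duplicate removal and peak caller nor the definition of the fold enrichment. Group sizes were 1 ChIP and 1 Input library. The methods state that the experiment was independently repeated, but 1 list was analysed.

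Peaks were made unique by position. Densities have exact Poisson intervals, ratios of densities exact conditional binomial (Clopper-Pearson) intervals, and shares Wilson intervals, all at 95% and for counting error only. The design allowed no test, so no p-value was computed, and a call means that such an interval lies apart from the value it is set against. The background was solved with a logarithm of base 10, which was chosen from the data. Simulated data were used to test these steps. The rule on transcript length leaves out 2 genes, and these and some other items that the rules name are not reported here. The members, gene groups, families and comparisons were chosen with earlier results of these data known.

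Genes were named by rule: the 10 densest and the 10 sparsest members, the 5 longest, the 5 with the most peaks, up to 15 with a promoter peak by fold, 5 on either side of the length limit, up to 3 per function group by length, the 3 with the longest empty stretch, and the 10 body peaks of highest fold. Members whose interval stands apart from their flanks, family pairs, members listed short of RefSeq, members with promoter peaks at inner starts, and ALK were named after their values were seen. Alternatives changed the peak limits, the length limit, the transcript, the flanks and the chromosomes used. Promoter windows and gene lengths came from RefSeq on GRCh38.p14, and 156 of the 157 members matched by symbol. Intervals were computed with scipy 1.17.1 and numpy 2.4.6, tables with pandas 2.3.3 and figures with matplotlib 3.10.9, under Python 3.11.15.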

Additional observations from a re-analysis of the deposited data

Results flagged for a closer look

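The length rule covers autosomes, and the peak list also holds genes of at least 600 kb on chromosome X that entered no comparison above. DMD, FRMPD4, IL1RAPL1, IL1RAPL2 and PCDH11X held 14 body peaks in 6.35 Mb. These genes, too, are listed only because a peak was assigned to them. Their density was 2.20 peaks per Mb (exact Poisson 95% interval 1.20 to 3.70), against 13.4 in the autosomal very long genes, a ratio of 0.164 (0.0896 to 0.276). DMD, which encodes dystrophin, had 3 peaks in 2092 kb. The rest of chromosome X between its first and last listed peak had 208 peaks in 148.6 Mb, or 1.40 peaks per Mb (1.22 to 1.60), and the ratio of the 5 genes to it was 1.57 (0.846 to 2.70), so the low level was shared by the rest of the chromosome. The number of peaks in the other 4 genes was between 1 and 4.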

How the results depend on the processing

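Of 48 alternatives, 40 left the value within its interval or within 1.5 times the count. The density ratio of very long genes to the rest of the autosomes was below 1 under all 13 alternatives tried for it, and that to genes of 300 to 600 kb under 11 of 12. With a fold enrichment of at least 10, the density was 0.648 peaks per Mb, the ratio to genes of 300 to 600 kb was 1.02 and the ratio to the rest of the autosomes was 0.860 (0.694 to 1.05), from the few peaks that pass that limit. With a length limit of 800 kb, the density was 12.3 peaks per Mb, the ratio to genes of 300 to 600 kb 0.777 and the ratio to the rest of the autosomes 0.754. With flanks freed of other listed genes, the ratio to the flanks was 1.05 (0.980 to 1.12), on the other side of 1 from the value with all flanks, and both intervals held 1. That alternative removes genes listed for a peak, which by itself raises the ratio. With a tolerance of 5%, the share of peaks at background was 60.05%. The alternatives of leaving out NBPF9 and NBPF19 and taking expected counts from each chromosome, were added after the data were seen. No paired analysis was possible because the data are 1 peak list with no replicate. Depth is unknown, the rest of the autosomes includes assembly gaps, and a gene without any assigned peak is not in the list.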
